A study of Mus musculus with 12 samples.

Results

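The receptors described here steer B cells and plasma cells between tissue compartments: the chemokine receptors Cxcr4, Cxcr5, Cxcr3, Ccr7, Ccr6, Ccr9 and Ccr10, the sphingosine-1-phosphate receptors S1pr1 and S1pr4, and the oxysterol receptor Gpr183. These 10 genes were taken by symbol from the 24325 genes listed for each library, and 9 of the 10 reached the level needed for testing. RNA was sequenced from splenic B cells of C57BL/6 mice after 4 days of culture with 25 µg/ml of the B cell mitogen lipopolysaccharide (LPS). The cells came from Mzb1-/- Prdm1+/gfp mice (ko) or Mzb1+/+ Prdm1+/gfp mice (wt). Mzb1 encodes a chaperone of the endoplasmic reticulum, and Prdm1 encodes Blimp1, the transcription factor that drives plasma cell differentiation. Every animal in both genotypes thus carried 1 Prdm1 allele with the green fluorescent reporter. Cells were enriched with B220 beads and sorted into activated B cells (CD138-, reporter-), pre-plasmablasts (CD138-, reporter+) and plasmablasts (CD138+, reporter+). The 3 populations and 2 genotypes made 6 groups with 2 libraries each, 12 in all. The labels give neither age nor sex, and do not say whether replicates came from separate animals or cultures, so p-values measure only the spread between these libraries.

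Homing receptors are G protein-coupled receptors that move a lymphocyte up a gradient of chemokine, sphingosine-1-phosphate or oxysterol. Follicular B cells are held in the spleen and lymph nodes by the receptors for follicle and T zone ligands, and plasma cells are known to lower these and to depend on CXCL12, the ligand of CXCR4, for their place in the bone marrow. Receptors for mucosal chemokines mark plasma cells bound for gut and other epithelia, and sphingosine-1-phosphate receptors act in exit from lymphoid tissue.

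Promoter windows of 300 bases, from 250 before to 50 after the annotated start, were available from RefSeq (GRCm38.p6) for 6 of the 10 receptors. Those of Cxcr4 and Ccr6 are shown because these genes moved in opposite directions and their windows differ in the motifs found, a choice made with both known. A link between motif and direction was not tested, and S1pr4 and Gpr183 fell like Ccr6 without a match. Capitals mark matches to a searched motif on either strand. The motifs were the TATA box TATAAA, the octamer ATTTGCAT, the Blimp1 core GTGAAAG, the PU.1 and Spi-B core GAGGAA, the Klf element CCACACCC and the interferon regulatory factor element, which GTGAAAG can overlap.
Cxcr4, chr1:128592250-128592549, minus strand: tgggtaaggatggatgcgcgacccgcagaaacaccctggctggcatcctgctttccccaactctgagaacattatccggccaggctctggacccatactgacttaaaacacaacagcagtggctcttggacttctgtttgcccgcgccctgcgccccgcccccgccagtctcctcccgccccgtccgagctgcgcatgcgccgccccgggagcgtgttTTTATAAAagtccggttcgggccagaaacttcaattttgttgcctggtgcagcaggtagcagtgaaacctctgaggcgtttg
Ccr6, chr17:8235793-8236092, plus strand: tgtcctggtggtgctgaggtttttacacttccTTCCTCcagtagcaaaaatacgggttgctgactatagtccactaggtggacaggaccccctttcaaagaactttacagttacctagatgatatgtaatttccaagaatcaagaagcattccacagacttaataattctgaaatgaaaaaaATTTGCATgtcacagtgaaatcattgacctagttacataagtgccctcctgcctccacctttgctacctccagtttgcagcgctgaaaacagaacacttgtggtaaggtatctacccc
Ccr6, chr17:8242276-8242575, plus strand: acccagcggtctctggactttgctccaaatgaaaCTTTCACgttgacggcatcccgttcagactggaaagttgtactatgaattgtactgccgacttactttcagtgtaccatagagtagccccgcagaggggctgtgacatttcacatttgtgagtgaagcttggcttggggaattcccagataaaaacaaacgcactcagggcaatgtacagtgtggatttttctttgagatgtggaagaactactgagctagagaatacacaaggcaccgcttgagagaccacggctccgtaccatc
The Cxcr4 window held overlapping TATA matches on both strands, 32 and 30 bases before the start, and TATAAA was found in 13.6% of 32851 such windows. One Ccr6 window held the octamer 68 bases before the start and the PU.1 and Spi-B core 218 bases before it, motifs present in 1.74% and 28.3% of windows. The other Ccr6 window held the Blimp1 core 216 bases before the start, as did 4.24% of windows. Cxcr3, with a PU.1 and Spi-B core 14 bases before its start, had the only other match, and the windows of Ccr9, S1pr4 and Gpr183 held none of these letters. The interferon regulatory factor and Klf elements, in 3.44% and 3.56% of windows, were in none of the receptors' windows. A match is a description of the letters and not a measured binding site.

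Expression was deposited as FPKM, fragments scaled to transcript length and to library size, with totals of 418966 to 581262 per library and 10180 to 10466 genes at 1 FPKM or more. Counts were not among the values used, so the sequencing depth is unknown. The targeted gene followed the labels: Mzb1 had 1008 and 926 FPKM in ko plasmablasts against 15434 and 17359 FPKM in wt plasmablasts, with residual reads in every ko library. Sdc1, which encodes CD138, was 66.5 and 98.4 FPKM in ko plasmablasts and 76.3 and 88.2 FPKM in wt plasmablasts, and at most 5.24 FPKM in any library sorted as CD138-. All 7 B cell markers were detected in each group. Granulocyte and erythroid markers summed to at most 0.424 FPKM in any library, and the T cell markers to at most 15.7 FPKM, with Trat1 at 0 in all libraries. The libraries differed in 3 ways the labels do not name. The ratios among low values followed 1 pattern in 8 libraries and another in 4, namely ko activated B cell replicate 2, ko pre-plasmablast replicate 2 and both ko plasmablast libraries. In plasmablasts this pattern and the genotype therefore cannot be told apart within the population. Replicate 1 of the 3 wt groups also stood apart, with 33.3 to 81.4 FPKM of Xist and at most 0.0479 FPKM of the Y-linked Ddx3y. The other 9 libraries, among them all ko libraries, had at most 0.389 FPKM of Xist and 15.7 FPKM or more of Ddx3y. Every comparison of ko with wt therefore carries this imbalance in sex-linked genes, unless wt replicate 1 is left out. Genes named as small RNAs (microRNAs, small nucleolar RNAs and the like) held 14.2% of the summed FPKM in ko pre-plasmablast replicate 2 and 0.982% to 5.72% in the other 11 libraries.

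In activated B cells 4 receptors were of similarly high abundance, and in pre-plasmablasts and plasmablasts Cxcr4 stood alone. By mean FPKM the order in wt activated B cells was Cxcr4, Ccr7, S1pr4, Cxcr5, S1pr1, Gpr183, Ccr6, Ccr10, Cxcr3 and Ccr9, and the ko order differed only in placing Ccr7 above Cxcr4. The libraries overlapped between Cxcr4 and Ccr7, between S1pr4 and Cxcr5 and between Cxcr3 and Ccr9 in both genotypes, so these neighbours were not separated. In plasmablasts the order was Cxcr4, S1pr4, S1pr1, Ccr10, Cxcr5, Ccr6, Gpr183, Ccr7, Ccr9 and Cxcr3 in ko cells, and in wt cells Ccr6 stood just above Cxcr5. Among these, S1pr1 overlapped Ccr10 and Ccr10 overlapped Cxcr5 in ko plasmablasts, and S1pr4 overlapped S1pr1, Ccr6 overlapped Cxcr5 and Cxcr5 overlapped Gpr183 in wt plasmablasts. The lead of Cxcr4 over the next receptor exceeded the spread in all 4 groups of reporter+ cells. Because whole populations were sequenced, fewer cells with a receptor and less RNA per cell cannot be told apart.

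**Figure D1:**
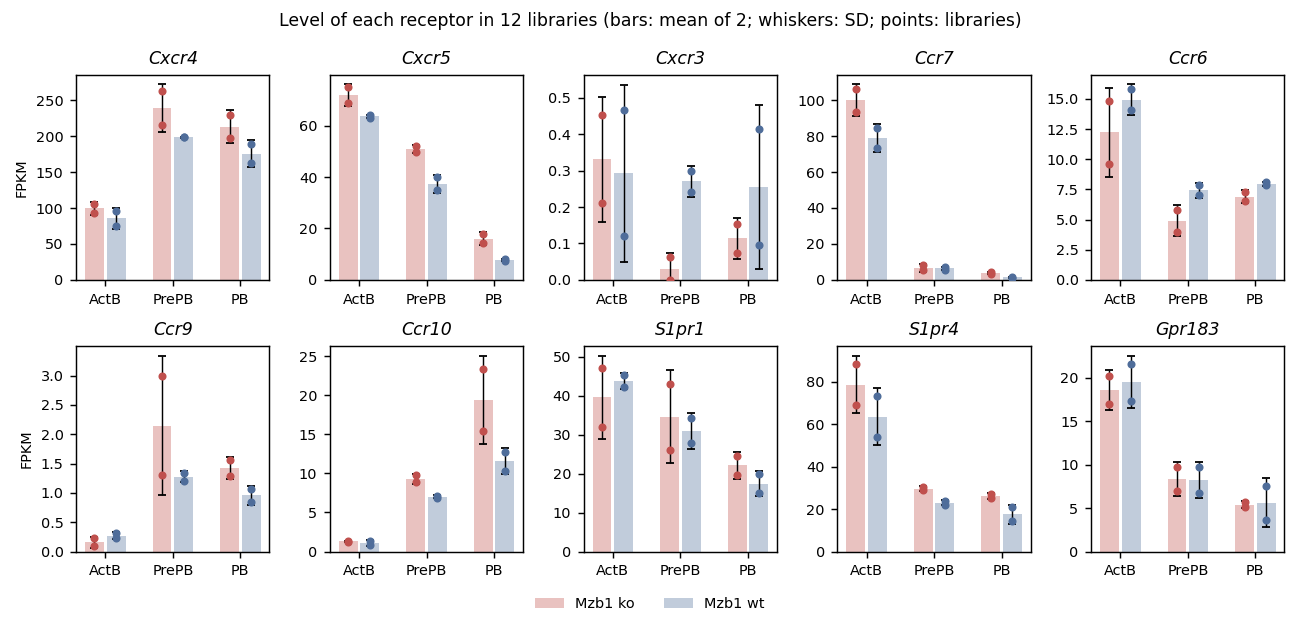
Levels of the 10 receptors in FPKM (vertical axes, one scale per panel) in activated B cells (ActB), pre-plasmablasts (PrePB) and plasmablasts (PB), with ko left of wt. Bars are means of 2 libraries, whiskers are SD and points are libraries; the mean of Cxcr4 is highest in pre-plasmablasts, while Ccr7 is at 73.4 FPKM or more in activated B cells and at 8.30 FPKM or less elsewhere.

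More receptors were called at the first step, when cells gained the Blimp1 reporter, than at the second, when they gained CD138. The same held for all tested genes. Changes were tested with limma on log2(FPKM + 1) in 11069 genes and called where the p adjusted over all of them (Benjamini-Hochberg) was below 0.05, and fold changes are on the FPKM + 1 scale. Between pre-plasmablasts and activated B cells, 3 of the 9 tested receptors were higher and 5 lower in ko cells, where 54.2% of all tested genes were called (27.1% higher, 27% lower). The wt comparison gave the same counts, 3 higher and 5 lower, against 53.4% of all genes (27.1% higher, 26.3% lower). The 3 higher receptors include Ccr9, which was tested only because it was high in reporter+ cells, so its place among them is no finding. Between plasmablasts and pre-plasmablasts, 1 receptor was higher and 1 lower in ko cells, against 10.8% of all genes (6.57% higher, 4.24% lower), and none was higher and 2 were lower in wt cells, against 8.73% (5.02% higher, 3.7% lower); with the replicate number as a block the second step gave 4 calls in ko and 5 in wt. The steps share the pre-plasmablast libraries, and the difference between them was not tested. Over both steps, plasmablasts against activated B cells, 3 were higher, Ccr9 again among them, and 6 lower in each genotype, against 62.2% of all genes in ko (31.2% higher, 30.9% lower) and 62% in wt (31% higher, 31% lower). The median log2 change of the 9 receptors over both steps was -0.79 in ko and -1.29 in wt, and that of all tested genes was -0.01 in each. Rescaling the libraries to equal totals moved the median of all genes to -0.28 in ko and -0.38 in wt, so the size of each change depends on the scaling, but no called receptor changed direction under it.

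Markers of other cell types moved between the same populations. The 6 macrophage and monocyte markers summed to 2.32 to 4.09 FPKM in ko and 0.337 to 0.596 FPKM in wt plasmablasts, against 13.0 to 30.2 FPKM in ko and 7.89 to 14.7 FPKM in wt activated B cells, with C1qa at 0 in all libraries. The 6 dendritic cell markers summed to 8.43 to 10.1 FPKM in ko and 7.63 to 8.90 FPKM in wt plasmablasts, against 19.1 to 24.3 FPKM in ko and 20.9 to 23.6 FPKM in wt activated B cells, with Clec9a at 0 in all. The 5 natural killer cell markers went the other way, with 6.54 to 7.07 FPKM in ko and 5.52 to 6.56 FPKM in wt plasmablasts, against 0.197 to 0.542 FPKM in ko and 0.277 to 0.645 FPKM in wt activated B cells, and Ncr1 at 0 in all. The part of these markers in the receptors' changes was not tested.

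**Figure D2:**
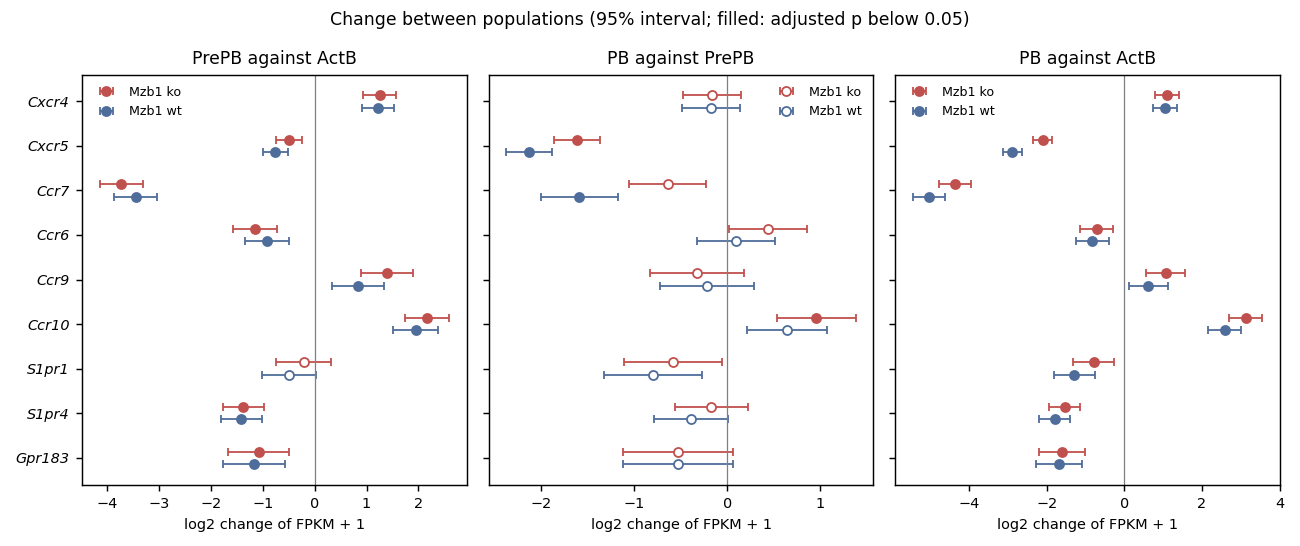
Change of the 9 tested receptors in log2(FPKM + 1) with 95% intervals from limma, for each step between populations and for both steps together, each panel with its own scale and ko above wt; filled points were called, and the increase of Ccr9 was a condition of its being tested. Ccr7 shows the largest decrease and Ccr10 the largest increase over both steps in each genotype.

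The receptors for follicle and T zone ligands fell furthest, on different schedules. Ccr7, the receptor for the T zone chemokines CCL19 and CCL21, fell 13.2-fold in ko and 10.9-fold in wt cells at the first step alone. Ccr7 in activated B cells was 93.7 and 106.2 FPKM in ko libraries and 73.4 and 84.6 FPKM in wt libraries. Ccr7 in pre-plasmablasts was 5.26 and 8.30 FPKM in ko libraries and 5.61 and 7.12 FPKM in wt libraries. Ccr7 in plasmablasts was 4.43 and 3.40 FPKM in ko libraries and 1.30 and 1.57 FPKM in wt libraries. All activated B cell libraries lay far above all others, and the groups did not overlap at either step in either genotype. At the first step the log2 change was -3.72 in ko cells (SE 0.19, adjusted p = 7.16e-08) and -3.44 in wt cells (adjusted p = 1.26e-07). The second step added a log2 change of -1.59 in wt cells (adjusted p = 0.000929), and of -0.64 in ko cells, which was not called (adjusted p = 0.0536). That ko step was called in 7 of 14 other settings (adjusted p from 0.0191 to 0.289), among them the replicate block (0.034), the term for the library pattern (0.0191) and the fit without ko pre-plasmablast replicate 1 (0.0261). Leaving out replicate 1 of all 3 wt groups ended the wt call at this step (adjusted p = 0.0629). Over both steps Ccr7 was 20.6-fold lower in ko and 32.8-fold lower in wt plasmablasts than in activated B cells.

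Cxcr5, the receptor for the follicle chemokine CXCL13, fell mainly at the second step. Cxcr5 in activated B cells was 68.9 and 74.9 FPKM in ko libraries and 63.0 and 64.1 FPKM in wt libraries. Cxcr5 in pre-plasmablasts was 52.0 and 49.9 FPKM in ko libraries and 39.9 and 34.9 FPKM in wt libraries. Cxcr5 in plasmablasts was 18.0 and 14.2 FPKM in ko libraries and 8.12 and 7.41 FPKM in wt libraries. Each population was below the one before it without overlap, in both genotypes. The first step gave log2 changes of -0.49 in ko (SE 0.11, adjusted p = 0.00373) and -0.75 in wt cells (adjusted p = 0.000213), and the second -1.61 in ko (adjusted p = 3.93e-05) and -2.13 in wt cells (adjusted p = 6.63e-06). At the second step Cxcr5 was thus the only receptor called lower in both genotypes, and with the replicate block Ccr7 and S1pr1 were so called as well. In the GENCODE M21 annotation, made for a later build than the authors' mm9, its exons overlap those of Bcl9l on the opposite strand, and the strand setting of the counting is not given in the sources used here. Bcl9l itself was 10.6 to 14.2 FPKM in activated B cells and 1.36 to 3.21 FPKM in the later populations, so reads of the pair might not be fully separated.

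Gpr183 (EBI2), the oxysterol receptor that guides activated B cells to the outer follicle, fell at the first step. Gpr183 in activated B cells was 17.0 and 20.2 FPKM in ko libraries and 17.4 and 21.6 FPKM in wt libraries. Gpr183 in pre-plasmablasts was 9.71 and 6.99 FPKM in ko libraries and 9.68 and 6.74 FPKM in wt libraries. Gpr183 in plasmablasts was 5.12 and 5.67 FPKM in ko libraries and 7.60 and 3.64 FPKM in wt libraries. Activated B cells were above the other populations without overlap, and the later wt populations overlapped. The first step gave log2 changes of -1.08 in ko (SE 0.27, adjusted p = 0.00582) and -1.17 in wt cells (adjusted p = 0.0038). The ko call was lost without ko pre-plasmablast replicate 2 (log2 change -0.87, adjusted p = 0.0503), the library with the high share of small RNA. It was also lost with no filter (adjusted p = 0.0563). The second step showed log2 differences of -0.53 in both genotypes that were not called (adjusted p = 0.247 in ko and 0.254 in wt). The gene lies inside Ubac2 on the opposite strand in GENCODE M21, and Ubac2 had the opposite order, with 101 to 108 FPKM in plasmablasts against 29.2 to 36.3 FPKM in activated B cells.

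Ccr6, the receptor for CCL20, showed a smaller decrease, seen at the first step. Ccr6 in activated B cells was 14.8 and 9.61 FPKM in ko libraries and 15.8 and 14.1 FPKM in wt libraries. Ccr6 in pre-plasmablasts was 5.81 and 4.00 FPKM in ko libraries and 7.86 and 6.997 FPKM in wt libraries. Ccr6 in plasmablasts was 6.52 and 7.26 FPKM in ko libraries and 8.09 and 7.83 FPKM in wt libraries. Pre-plasmablasts and plasmablasts lay below activated B cells in every library, and within each of these 2 populations the ko libraries lay below the wt libraries. At the first step the log2 change was -1.15 in ko (adjusted p = 0.000452) and -0.92 in wt cells (adjusted p = 0.002). The wt call at this step was lost when a log2 change of 1 was required. It was also lost without wt replicate 1 of all populations, where the log2 change was -0.91. The second step was not called (log2 differences 0.43 in ko and 0.09 in wt). Over both steps the log2 change was -0.72 in ko (SE 0.19, adjusted p = 0.00692) and -0.83 in wt cells (adjusted p = 0.00294). Without ko activated B cell replicate 1, the ko change was -0.43 and was not called (adjusted p = 0.0737), and the wt call was lost without wt replicate 1 of all populations (adjusted p = 0.0781).

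Cxcr4, the receptor for the bone marrow chemokine CXCL12, was the most abundant receptor after the first step and rose there in both genotypes. Cxcr4 in activated B cells was 105.9 and 93.0 FPKM in ko libraries and 75.1 and 95.7 FPKM in wt libraries. Cxcr4 in pre-plasmablasts was 262 and 216 FPKM in ko libraries and 198.2 and 198.7 FPKM in wt libraries. Cxcr4 in plasmablasts was 229 and 197 FPKM in ko libraries and 162 and 189 FPKM in wt libraries. No library of reporter+ cells was as low as any activated B cell library. After the first step Cxcr4 was 2.38-fold higher in ko (log2 change 1.25, SE 0.14, adjusted p = 2.75e-05) and 2.32-fold higher in wt cells (log2 change 1.22, adjusted p = 3.39e-05). The second step showed log2 differences of -0.16 in ko and -0.18 in wt cells that were not called (adjusted p = 0.527 and 0.479).

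Ccr10, the receptor for the epithelial chemokines CCL27 and CCL28, had the largest relative increase of the 10. Ccr10 in activated B cells was 1.22 and 1.37 FPKM in ko libraries and 1.40 and 0.807 FPKM in wt libraries. Ccr10 in pre-plasmablasts was 9.77 and 8.89 FPKM in ko libraries and 7.15 and 6.90 FPKM in wt libraries. Ccr10 in plasmablasts was 23.4 and 15.4 FPKM in ko libraries and 12.7 and 10.4 FPKM in wt libraries. The 3 populations were ordered without overlap in each genotype, upward. On the FPKM + 1 scale, which understates the change of a gene this low in activated B cells, plasmablasts were 8.73-fold above activated B cells in ko (log2 change 3.13, SE 0.19, adjusted p = 1.83e-07) and 6.00-fold above them in wt (log2 change 2.59, adjusted p = 7.6e-07). The second step was called in ko cells (log2 change 0.96, adjusted p = 0.0118) and not in wt cells (0.64, adjusted p = 0.0665, or 0.0329 with the replicate block). That ko call was lost on leaving out ko plasmablast replicate 1 (adjusted p = 0.069), ko pre-plasmablast replicate 1 (adjusted p = 0.0572) or ko pre-plasmablast replicate 2 (adjusted p = 0.068). The gene lies inside Cntnap1 on the opposite strand, which stayed between 2.06 and 4.52 FPKM in all libraries.

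Ccr9 and Cxcr3, receptors for the gut chemokine CCL25 and for the interferon-induced chemokines CXCL9 to CXCL11, were low throughout. Ccr9 passed the filter through the reporter+ populations alone, where 7 of 8 libraries reached 1 FPKM, so a higher level there was a condition of its being tested. Ccr9 in activated B cells was 0.0901 and 0.224 FPKM in ko libraries and 0.228 and 0.319 FPKM in wt libraries. Ccr9 in pre-plasmablasts was 2.99 and 1.31 FPKM in ko libraries and 1.34 and 1.21 FPKM in wt libraries. Ccr9 in plasmablasts was 1.56 and 1.29 FPKM in ko libraries and 1.07 and 0.840 FPKM in wt libraries. The activated B cell libraries lay below all others. The log2 difference between plasmablasts and activated B cells was 1.07 in ko and 0.62 in wt, given as a description with no test. The second step, with log2 differences of -0.32 in ko and -0.22 in wt, was not called (adjusted p = 0.416 and 0.599). In GENCODE M21 the exons of Ccr9 overlap those of Gm17200, a long noncoding RNA gene, on the same strand. They also overlap those of Slc6a20a on the opposite strand, so reads of Ccr9 might not be fully separated. Cxcr3 never reached 1 FPKM and was not tested: its libraries ran from 0 to 0.466 FPKM, and it was listed at 0 in ko pre-plasmablast replicate 2.

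Both sphingosine-1-phosphate receptors fell, S1pr4 at the first step and S1pr1 over both steps together. S1pr1 is the receptor that carries lymphocytes out of lymphoid organs, and S1pr4 is another receptor of the family, abundant in lymphocytes. S1pr1 in activated B cells was 32.1 and 47.1 FPKM in ko libraries and 42.3 and 45.3 FPKM in wt libraries. S1pr1 in pre-plasmablasts was 26.1 and 43.0 FPKM in ko libraries and 27.7 and 34.2 FPKM in wt libraries. S1pr1 in plasmablasts was 19.7 and 24.6 FPKM in ko libraries and 15.1 and 19.8 FPKM in wt libraries. Plasmablasts lay below the other 2 populations without overlap in each genotype, and the 2 replicates of ko pre-plasmablasts were far apart. The log2 change over both steps was -0.79 in ko (SE 0.24, adjusted p = 0.014) and -1.29 in wt cells (adjusted p = 0.000753). Neither single step was called in either genotype in this fit, though it was lower at each step when libraries with the same replicate number are set side by side. The first step was called in 5 of 15 other settings in wt cells and 0 of 14 in ko cells. The second, with log2 changes of -0.59 in ko and -0.80 in wt, was called in 2 of 14 and 4 of 15. The replicate block was among them, with adjusted p of 0.00704 for the second step in ko, and of 0.00327 for the first and 0.00214 for the second in wt. The ko call was lost without ko activated B cell replicate 2 (log2 change -0.52, adjusted p = 0.122) or ko plasmablast replicate 1 (-0.64, adjusted p = 0.094).

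S1pr4 in activated B cells was 69.2 and 88.3 FPKM in ko libraries and 54.1 and 73.1 FPKM in wt libraries. S1pr4 in pre-plasmablasts was 28.8 and 30.4 FPKM in ko libraries and 22.2 and 23.9 FPKM in wt libraries. S1pr4 in plasmablasts was 25.0 and 27.4 FPKM in ko libraries and 14.5 and 20.8 FPKM in wt libraries. Activated B cells stood above the other populations by more than the spread of their libraries. The first step gave log2 changes of -1.37 in ko (SE 0.18, adjusted p = 8.36e-05) and -1.41 in wt cells (adjusted p = 6.63e-05), and the second step was not called in either, though the replicate block called it in wt (log2 change -0.39, adjusted p = 0.0431). The family did not move as a whole. S1pr2, known for confining germinal centre B cells, was 6.77 and 7.13 FPKM in ko plasmablasts against 1.22 and 1.44 FPKM in ko activated B cells, and 6.92 and 6.28 FPKM in wt plasmablasts against 1.21 and 1.35 FPKM in wt activated B cells. Its log2 change was 1.77 in ko (adjusted p = 3.66e-07) and 1.74 in wt (adjusted p = 4.11e-07), opposite in sign to those of S1pr1 and S1pr4. S1pr3 fell in both genotypes (adjusted p = 0.00121 in ko and 0.00045 in wt), with a log2 change of -1.16 in wt. S1pr5, named after its values were seen, was listed at 0 in all 12 libraries.

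As shares of the summed FPKM of the 10 receptors, the mixture turned from 4 comparable receptors to 1. Cxcr4 made up 26.3% and 21.1% of the sum in ko activated B cells and 21.9% and 23.9% in wt ones. It held 65.1% and 58.5% in ko and 62.0% and 61.9% in wt pre-plasmablasts. Its share in plasmablasts was 68.8% and 66.5% in ko and 70.3% and 72.2% in wt libraries. Ccr7 held 21.1% to 24.1% of the sum in activated B cells and at most 1.33% in plasmablasts. The sum itself was 333 and 296 FPKM in ko plasmablasts against 403 and 441 FPKM in ko activated B cells, and 231 and 262 FPKM in wt plasmablasts against 343 and 400 FPKM in wt activated B cells. Shares and ratios within a library do not depend on how libraries were scaled to each other. The ratio of Cxcr4 to Cxcr5, each per transcript length, was 12.8 and 13.9 in ko plasmablasts against 1.54 and 1.24 in ko activated B cells. In wt cells it was 20.0 and 25.5 in plasmablasts against 1.19 and 1.49 in activated B cells. The ratio of Cxcr4 to Ccr7 showed the same order, with 51.7 and 58.1 in ko plasmablasts against 1.13 and 0.876 in ko activated B cells, and 125 and 121 in wt plasmablasts against 1.02 and 1.13 in wt activated B cells. Both ratios were thus lower in ko than in wt plasmablasts without overlap, and the groups overlapped in activated B cells. In plasmablasts genotype and library pattern cannot be told apart.

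**Figure D3:**
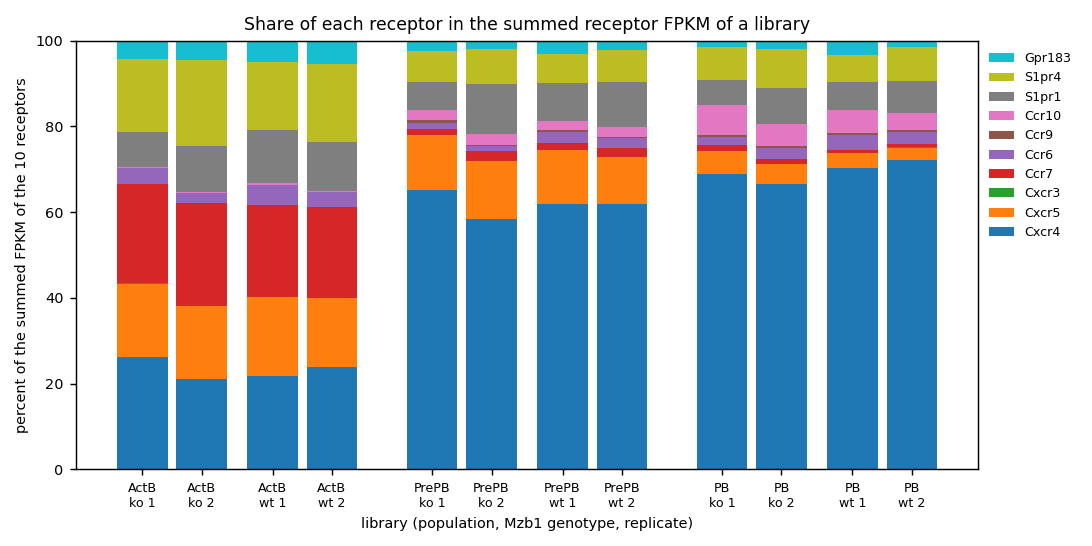
Share of each receptor in the summed FPKM of the 10 receptors (percent, vertical axis), with 1 stacked bar per library, populations from left to right and ko left of wt. Cxcr4 holds 21.1% to 26.3% of the sum in activated B cells and 66.5% to 72.2% in plasmablasts.

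Between the genotypes, Cxcr5 in plasmablasts was the only receptor called, and it was higher in ko cells. Each comparison of ko with wt carries the uneven Xist and Ddx3y levels of the wt replicates, and their part was not tested. In activated B cells none of the 9 tested receptors was called between ko and wt by limma, against 0.0542% of all tested genes (0.0181% higher, 0.0361% lower), and none had an unadjusted p below 0.05. Their log2 differences ran from -0.30 for Ccr6 to 0.34 for Ccr7 (adjusted p of 0.709 or more). In pre-plasmablasts none was called, against 0.117% of all genes (0.0994% higher, 0.0181% lower), while 2 had an unadjusted p below 0.05: Cxcr5 (log2 difference 0.44, unadjusted p = 0.00259, adjusted p = 0.143) and Ccr6 (-0.53, unadjusted p = 0.0183, adjusted p = 0.233). The other 7 differed there by 0.02 for Gpr183 to 0.41 for Ccr9 on the log2 scale (adjusted p of 0.395 or more). In plasmablasts 1 receptor was called, against 0.407% of all genes (0.262% higher, 0.145% lower). That share of all genes was 0.0907% without ko plasmablast replicate 1, 0.0996% and 0.0997% without wt replicate 1 or 2, and 0.0361% with a term for the library pattern. The receptor was Cxcr5, at 18.0 and 14.2 FPKM in ko and 8.12 and 7.41 FPKM in wt plasmablasts, 1.94-fold higher in ko (log2 difference 0.95, SE 0.11, 95% interval 0.71 to 1.20, adjusted p = 0.00539). The groups did not overlap.

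The Cxcr5 call in plasmablasts held in 10 of 15 other settings, with log2 differences of 0.79 to 1.11 and adjusted p from 0.00389 to 0.201. It was lost without wt plasmablast replicate 2 (adjusted p = 0.0628), without wt replicate 1 of all populations (0.105), with a term for the library pattern (0.119), with both groups fitted alone (0.201), and when a log2 difference of 1 was required. Beside it, 1 of 7 B cell markers was called higher in ko plasmablasts, Pax5, which keeps B cell identity, against 0.262% of all genes. The 7 summed to between 13041 and 14121 FPKM in ko plasmablasts against 11873 to 12625 FPKM in wt plasmablasts. The sum does not track B cell identity. It was lower in activated B cells (9740 to 11651 FPKM in ko, 8623 to 10475 FPKM in wt). Yet 4 of the 7 were called lower and 2 higher in plasmablasts than in activated B cells, in each genotype. None of 5 plasmablast markers was called, and these summed to between 18970 and 22134 FPKM in ko against 21979 to 25739 FPKM in wt plasmablasts. The part of these markers in the Cxcr5 difference was not tested. The 6 macrophage and monocyte markers summed to 2.32 to 4.09 FPKM in ko plasmablasts against 0.337 to 0.596 FPKM in wt plasmablasts, with C1qa at 0 in both, and their part was not tested either.

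Other receptors differed in plasmablasts by amounts that missed the threshold. Ccr7 was 2.01-fold higher in ko plasmablasts (log2 difference 1.01, 95% interval 0.59 to 1.42, adjusted p = 0.0541), with no overlap of libraries, and passed in 4 of 15 other settings. Ccr10 differed by a log2 value of 0.68 (95% interval 0.25 to 1.10, adjusted p = 0.138) and S1pr4 by 0.57 (0.17 to 0.96, adjusted p = 0.17). The intervals of Cxcr4 (-0.03 to 0.59), S1pr1 (-0.20 to 0.86), Ccr9 (-0.19 to 0.81), Gpr183 (-0.57 to 0.61) and Ccr6 (-0.60 to 0.24) all included 0. The median over the 9 receptors was 0.33 in plasmablasts, 0.26 in pre-plasmablasts and 0.14 in activated B cells, and that over all tested genes was 0.03, 0.01 and 0.01 in the same order of populations. Equal totals moved the median of all genes to 0.12 in plasmablasts. These 3 knockout comparisons use separate libraries but share a fit. Whether the populations were sorted from the same cultures is not given, so the comparisons cannot be counted as independent repeats.

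**Figure D4:**
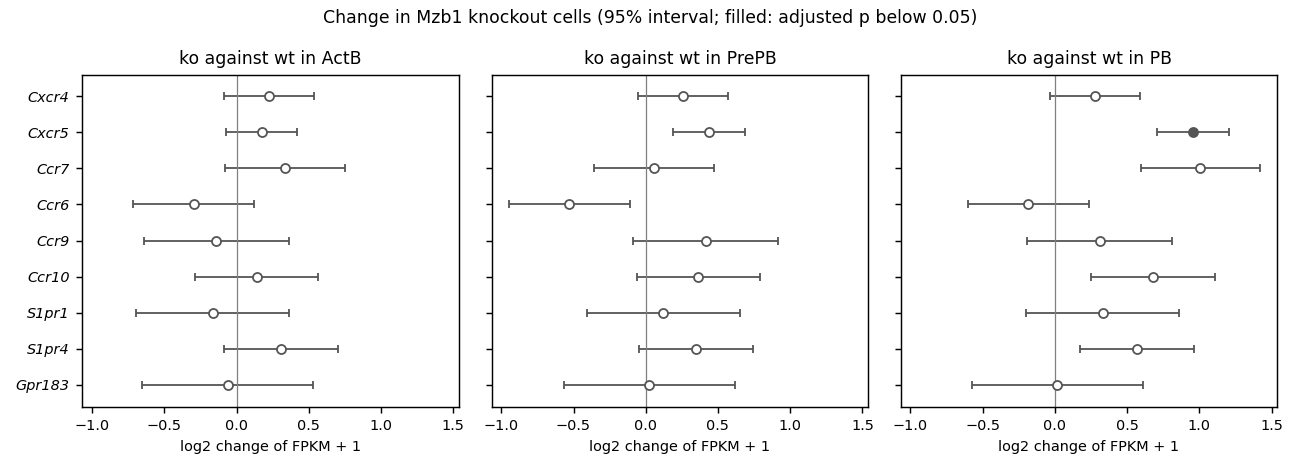
Difference between ko and wt in log2(FPKM + 1) for the 9 tested receptors with 95% limma intervals, in 3 panels from activated B cells to plasmablasts on the same horizontal scale; filled points were called. Cxcr5 in plasmablasts, at 0.95, is the only called receptor.

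Whether the knockout difference itself changed between populations was tested as an interaction, and no receptor was called. Over all genes 0.0361% were called for pre-plasmablasts minus activated B cells, 0% for plasmablasts minus pre-plasmablasts and 0.0452% for plasmablasts minus activated B cells. At an unadjusted p below 0.05 the limma counts of receptors were 0, 2 and 2 in these comparisons. Cxcr5 had an interaction of 0.78 for plasmablasts minus activated B cells (unadjusted p = 0.000513, adjusted p = 0.356) and of 0.52 for plasmablasts minus pre-plasmablasts (unadjusted p = 0.00813, adjusted p = 1). Ccr7 had an interaction of 0.95 for plasmablasts minus pre-plasmablasts (unadjusted p = 0.00461, adjusted p = 1) and of 0.67 for plasmablasts minus activated B cells (unadjusted p = 0.0289, adjusted p = 1). The other interactions ran from -0.28 for Ccr7 to 0.55 for Ccr9, both in pre-plasmablasts minus activated B cells. A knockout difference particular to plasmablasts was therefore not shown for any receptor.

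Of 26 listed regulators of homing receptors 24 were tested, and 7 were higher and 14 lower in ko plasmablasts than in ko activated B cells, where 62.2% of all genes were called. In wt 8 were higher and 15 lower, where 62% of all genes were called. Their median log2 change was -0.79 in ko and -0.91 in wt. Klf2, a factor known to drive S1pr1 transcription in lymphocytes, was 6.88 and 1.16 FPKM in ko plasmablasts against 166 and 194 FPKM in ko activated B cells, and 1.43 and 1.09 FPKM in wt plasmablasts against 119 and 152 FPKM in wt activated B cells. Its log2 change in wt cells was -5.91 (adjusted p = 6.02e-07), far larger than that of S1pr1. Cd69, whose protein binds S1PR1 and takes it off the surface, rose by a log2 change of 1.37 in ko (adjusted p = 1.97e-05) and 1.12 in wt (adjusted p = 8.93e-05); it was named after its values were seen. Among B cell factors Pax5 changed by -5.48 and Spib by -6.41 in wt cells, while Pou2af1 and Irf4 rose by 1.94 and 1.98. In the knockout comparison of plasmablasts 2 of the 24 were called, against 0.407% of all genes, both higher in ko: Pax5 (log2 difference 1.17, adjusted p = 0.0031), at 7.24 and 5.92 FPKM in ko against 2.02 and 2.76 FPKM in wt, and Spib (1.46, adjusted p = 0.0148), at 17.2 and 9.94 FPKM in ko against 4.37 and 3.91 FPKM in wt.

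Other chemokine and lipid receptors divided in the same comparison. Of 36 listed, 15 were tested, and 5 were higher and 6 lower in ko plasmablasts than in ko activated B cells, against 5 higher and 7 lower in wt, beside 62.2% and 62% of all genes called. The medians were 0.07 in ko and -0.15 in wt, and equal totals turned the ko median to -0.17 and the wt count to 5 higher and 10 lower. Atypical receptors clear chemokines without signalling to G proteins. Ackr2, a scavenger of inflammatory chemokines, changed by -3.75 on the log2 scale in wt cells (adjusted p = 1.06e-08 by limma). Ackr4, a scavenger of the CCR7 and CCR9 ligands, differed by 1.83 in wt cells, given as a description with no test. Ackr4 lay below 1 FPKM in every activated B cell library, so a higher level in reporter+ cells was a condition of its being tested. Its place among the higher receptors is therefore no finding. Ackr4 was 3.10 and 2.12 FPKM in ko plasmablasts against 0.311 and 0.152 FPKM in ko activated B cells, and 3.14 and 3.68 FPKM in wt plasmablasts against 0.269 and 0.215 FPKM in wt activated B cells. Gpr55, a receptor for lysophosphatidylinositol, reached 109 and 117 FPKM in ko plasmablasts and 118 and 111 FPKM in wt plasmablasts, above every homing receptor but Cxcr4, with a log2 change of 2.13 in wt (adjusted p = 1.39e-07). Ccrl2, which presents chemerin, rose by 2.76 and Gpr132 fell by 1.38 on the log2 scale in wt. None of the 15 was called between ko and wt in any population. Few genes were called at all: 0.0542% in activated B cells, 0.117% in pre-plasmablasts and 0.407% in plasmablasts. Of these P2ry10, a lysophospholipid receptor, had the lowest adjusted p in plasmablasts by limma (log2 difference 0.37, adjusted p = 0.134).

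Of 33 ligand and ligand metabolism genes 19 were tested, and 6 were higher and 6 lower in ko plasmablasts than in ko activated B cells, against 5 higher and 7 lower in wt, near the 62.2% and 62% of all genes called. Among ligands of the receptors above, Cxcl13, Ccl19, Ccl21a, Ccl20, Cxcl9 and Cxcl11 were listed at 0 in all libraries, Cxcl12 at 0 in 11 of 12, and Ccl28 at no more than 0.0242 FPKM. Others, named after their values were seen, were present at low levels: Cxcl10, a ligand of Cxcr3, at 0.822 to 2.56 FPKM, Ccl25, the ligand of Ccr9, at 0.985 to 3.36 FPKM and Ccl27a, a ligand of Ccr10, at 0 to 1.70 FPKM. Cxcl10 was called higher in ko plasmablasts than in ko activated B cells (log2 change 0.58, adjusted p = 0.0242), but not with equal totals (adjusted p = 0.0788). The inflammatory chemokines Ccl3 and Ccl4 rose in wt cells by log2 changes of 3.04 and 2.74 (adjusted p = 1.76e-06 and 2.05e-06). Spns2, an exporter of sphingosine-1-phosphate, changed by -2.27 in ko (adjusted p = 2.74e-06) and -2.30 in wt (adjusted p = 2.41e-06). Asah1 and Asah2, ceramidases that release sphingosine, rose by 0.78 and 1.04 in wt, and Dpp4, a protease that cleaves CXCL12, fell by 1.29. None of the 19 was called between ko and wt, where at most 0.407% of all genes were called in any population.

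Of the signalling genes below the receptors, all 38 of which were tested, 8 were higher and 20 lower in ko plasmablasts than in ko activated B cells, where 31.2% of all genes were higher and 30.9% lower. In wt 6 were higher and 19 lower, where 31% of all genes were called in each direction. The split depends on the scaling: equal totals gave 6 higher and 27 lower in ko, and 5 higher and 28 lower in wt. Pik3cg, the G protein-coupled catalytic subunit of phosphoinositide 3-kinase, was 147 and 161 FPKM in ko plasmablasts against 1.19 and 2.16 FPKM in ko activated B cells, and 188 and 190.4 FPKM in wt plasmablasts against 1.98 and 2.06 FPKM in wt activated B cells. Its log2 change was 5.88 in ko (adjusted p = 6.61e-10) and 5.97 in wt (adjusted p = 6.83e-10). Gnaq, a G protein alpha subunit, rose by 1.92 in wt, and Plcb2, a phospholipase activated by G proteins, fell by 2.07. The GTPase Rac2, the guanine exchange factor Dock8 and the G protein regulator Rgs19 changed by -1.37, -1.36 and -1.23 in wt. Between genotypes Plcb2 was the only gene of the 38 called in pre-plasmablasts, where 0.117% of all genes were called. Plcb2 was at 10.1 and 9.33 FPKM in ko against 4.08 and 4.75 FPKM in wt (log2 difference 0.99, adjusted p = 0.0177). Rgs16, which shortens chemokine receptor signals, was the only gene of the 38 called in plasmablasts, where 0.407% of all genes were called. Rgs16 was at 2.97 and 2.63 FPKM in ko against 1.08 and 1.10 FPKM in wt (log2 difference 0.86, adjusted p = 0.0415). Quantile normalization ended that call (adjusted p = 0.0571).

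For each tested receptor the genes closest in pattern were taken from 8256 genes by Pearson's r of log2(FPKM + 1) over the 12 libraries, which share their populations and genotypes, so r is a description. Ccr7 was closest to Evl (r = 0.996), a regulator of actin filaments, followed by Rcsd1 and Stx7. Ccr10 was closest to the metal transporter Slc11a2 (r = 0.991), S1pr4 to the exocyst subunit Exoc2 (r = 0.992) and Cxcr4 to the transcription factor Atf5 (r = 0.985). Gpr183 was closest to Cd40 (r = 0.978), the receptor through which T cells stimulate B cells, and Cxcr5 to the kinase Nadk (r = 0.977), followed by Pde2a and Lipc. Ccr6 was closest to Nbn (r = 0.972), Ccr9 to Atp1b1 (r = 0.961) and S1pr1 to Srpk3 (r = 0.960).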

How the data were processed

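RNA of 12 libraries from 6 groups was measured with an oligo-dT selected, stranded TruSeq mRNA protocol, per the labels' protocols. The values deposited by the authors are FPKM, 1 value per gene symbol and library. The submitters' processing notes name the mm9 build, the aligner TopHat2 (2.0.14), Cuffnorm and Cufflinks (both 2.2.1), Cuffdiff, and bcl2fastq in versions 2.17.1.14 and 0.3.1. The annotation, the scaling between libraries, any filter and the strand setting are not given in the sources used here. Depth is unknown, so no counting interval was computed.

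Values were analysed as log2(FPKM + 1), which understates changes of low genes. Testing was limited to genes that reached 1 FPKM in 2 or more libraries and used limma 3.58.1 (limma-trend, R 4.3.3), with 1 coefficient per group (residual degrees of freedom 6, prior 4.49). Tests were two-sided and adjusted over all 11069 tested genes (Benjamini-Hochberg) in 9 comparisons and 3 interactions, and the fit was tested on simulated data. Standard errors and 95% intervals are those of limma. Shares and ratios were computed within each library, with pandas 2.3.3 in Python 3.11.15. Libraries were set into 2 patterns by the share of genes below 0.5 FPKM at the most frequent ratio between libraries, with a log2 tolerance of 0.002: 9.07% to 20.5% and 7.70% to 16.6% within the patterns, 2.13% to 4.89% across them.

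The receptors, the gene lists and the tests were chosen with earlier results of these data known. The rule takes all 10 receptors in each comparison; Cxcr3 was not tested, and where some of the other 9 have no value of their own in the text, their range or the plot gives it. From each list, up to 6 called genes with the lowest p are named for wt plasmablasts set against activated B cells, up to 2 elsewhere, or the 2 with the lowest p where none was called; exceptions are named as such, and 1 gene that the rule takes is not reported here. The genes closest in pattern to a receptor are the 3 with the highest r among those averaging 5 FPKM. Sequences come from RefSeq and overlaps from GENCODE M21, both on GRCm38. Replicate numbers were not treated as pairs; a replicate block was an alternative.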

Additional observations from a re-analysis of the deposited data

How the results depend on the processing

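No called receptor changed direction under any alternative: of 1698 alternative values for single receptors, 1633 kept their side of the threshold, 38 lost it and 27 gained it. The count of receptors called between ko and wt plasmablasts, 1 as reported, was 0 with a minimum log2 change of 1, with the groups fitted alone, with a term for the fragment pattern and without wt replicate 1 of all populations. It was 2 with a filter of 5 FPKM, a pseudocount of 0.1, equal totals or the replicate block, Ccr7 being the gene added. For plasmablasts against pre-plasmablasts, the ko count of 2 became 1 with a minimum log2 change of 1, no filter or the groups alone, 4 with the replicate block and 5 with the pattern term. The wt count of 2 became 4 with equal totals or duplicateCorrelation, 5 with the replicate block and 1 without wt replicate 1 of all populations. For pre-plasmablasts against activated B cells, the wt count of 8 became 5 with a minimum log2 change of 1. The cause of these shifts was not tested. Leaving out 1 library at a time gave 0 to 1 receptors called between ko and wt plasmablasts, 1 to 2 for ko and 2 for wt plasmablasts against pre-plasmablasts, 7 to 8 for pre-plasmablasts against activated B cells in either genotype, 8 to 9 for ko and 8 for wt plasmablasts against activated B cells, and 0 in the other knockout comparisons and the interactions. Differences between replicates correlated across genes at -0.11, -0.08 and -0.05 between ko and wt of 1 population. Between populations of 1 genotype they correlated at 0.29, 0.10 and 0.11 in ko and 0.05, 0.32 and 0.24 in wt, and the labels do not say whether a number is shared. A crossed pairing, added after seeing the data, called 0 receptors in activated B cells. Having 2 libraries a group and an unknown depth limits the precision to the intervals given. Tools that need counts were not run.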

Other observations

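S1pr1 and S1pr4 were higher in replicate 2 than in replicate 1 in 6 of 6 groups, and Ccr6 and Ccr10 were so in 1 of 6. S1pr1 was 26.1 FPKM in replicate 1 and 43.0 FPKM in replicate 2 of ko pre-plasmablasts, which was its widest gap. The numbers are only names across genotypes, and whether they mark shared cultures is not given in the labels. Within wt cells the number went with the level of Xist. Replicate 1 had 33.3 to 81.4 FPKM and replicate 2 at most 0.0321 FPKM in the 3 populations. The main fit did not use the replicate number.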
